A study of Homo sapiens with 6 samples.

Results

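The activins, the follistatins that bind them, their receptors and growth differentiation factor 15 were examined as a group of 9 genes in HuCCT1 cells with and without CD90. The members were INHBA, INHBB, FST, FSTL3, ACVR1, ACVR1B, ACVR2A, ACVR2B and GDF15, chosen by name, and all 9 were found among the 20811 genes of the table. HuCCT1 is a human intrahepatic cholangiocarcinoma (iCCA) cell line, and CD90 is the surface glycoprotein encoded by THY1. HuCCT1/CD90+ cells carried the lentivirus human THY1-CMV-GFP and HuCCT1/CD90− cells carried Lenti-CMV-GFP-2A-Puro-Blank, both at an MOI of 40, so that both lines carry a lentivirus with a CMV promoter and GFP. Each line gave 3 libraries, and nothing in the labels says that these came from separate cultures, so p-values measure the spread between these libraries, which may be technical. Whether either line is a pool or 1 clone is not given in the sources used here.

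Activins are dimers of inhibin beta chains, which INHBA and INHBB encode, and belong to the TGF-β family. They bind a type II receptor (ACVR2A or ACVR2B), which then phosphorylates a type I receptor such as ACVR1B, and this leads to phosphorylation of SMAD2 and SMAD3, the same SMADs that TGF-β uses. Follistatin and follistatin-like 3, the products of FST and FSTL3, are secreted glycoproteins that hold activin in a complex that cannot reach its receptor, and FST is itself a common target of activin signaling. GDF15 is a distant family member that is induced by cellular stress and signals through GFRAL, a receptor found mainly in the brainstem.

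The sequences upstream of the 4 members that differed between the lines after adjustment are shown first, to set genes that moved together beside 1 that moved the other way. They were taken from RefSeq (GRCh38.p14), in which all 9 members matched, with 12 annotated start sites. For INHBA, FST and FSTL3 this RefSeq start lies within the GENCODE gene given below, so that upstream means before the RefSeq start only. The whole INHBA window and all marked FST matches lie inside those GENCODE genes. Each runs 5′ to 3′ on the strand of the gene, from 250 bases before the annotated start to 10 bases into the transcript. Capitals mark matches, on either strand, to the letters of AP-1 (TGANTCA), TEAD (GGAATG), the cAMP response element core (TGACGT), the SMAD palindrome without its last letter (GTCTAGA), an ATF4 site (TGATGNAA), the GC box (GGGCGG) and the TATA box (TATAAA).
FST, chr5:53480379-53480638, plus strand: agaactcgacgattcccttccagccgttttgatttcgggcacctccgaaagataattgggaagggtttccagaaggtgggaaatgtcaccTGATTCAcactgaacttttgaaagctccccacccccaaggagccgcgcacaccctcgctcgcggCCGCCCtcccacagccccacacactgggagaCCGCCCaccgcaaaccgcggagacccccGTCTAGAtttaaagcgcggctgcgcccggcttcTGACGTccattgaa
INHBA, chr7:41703081-41703340, minus strand: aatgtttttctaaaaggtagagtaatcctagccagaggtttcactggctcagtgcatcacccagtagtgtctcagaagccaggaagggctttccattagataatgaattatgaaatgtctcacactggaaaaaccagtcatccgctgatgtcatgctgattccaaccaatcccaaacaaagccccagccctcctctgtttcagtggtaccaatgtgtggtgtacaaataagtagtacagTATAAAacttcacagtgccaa
INHBB, chr2:120345886-120346145, plus strand: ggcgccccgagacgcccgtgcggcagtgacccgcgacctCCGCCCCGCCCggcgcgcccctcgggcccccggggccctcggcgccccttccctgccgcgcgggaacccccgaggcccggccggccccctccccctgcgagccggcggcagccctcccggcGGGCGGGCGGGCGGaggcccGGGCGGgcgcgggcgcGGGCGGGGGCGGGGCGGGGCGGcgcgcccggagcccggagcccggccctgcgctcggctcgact
FSTL3, chr19:676142-676401, plus strand: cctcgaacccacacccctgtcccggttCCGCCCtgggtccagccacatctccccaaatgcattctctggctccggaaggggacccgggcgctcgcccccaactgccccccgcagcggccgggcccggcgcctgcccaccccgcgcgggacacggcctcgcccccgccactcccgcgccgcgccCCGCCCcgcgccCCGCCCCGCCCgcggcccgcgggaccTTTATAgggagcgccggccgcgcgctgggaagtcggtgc
The FST window held 1 AP-1, 1 cAMP response element and 1 shortened SMAD match beside 2 GC boxes. Over all 35116 RefSeq windows of this length, 6.92% held the AP-1 letters, 7.47% the cAMP response element core and 1.24% the shortened SMAD letters. ACVR1 was the other member with the shortened SMAD letters. The full palindrome GTCTAGAC, of which the shortened letters are a part, was in none of the member windows and in 0.185% of all. The windows of INHBA and INHBB had little in common, although both genes were higher in HuCCT1/CD90+. That of INHBA held 1 TATA match, 1 CpG dinucleotide and 43.1% G or C, whereas that of INHBB held 10 GC boxes, some overlapping, 48 CpG dinucleotides and 88.8% G or C. The medians over all windows were 11 CpG dinucleotides and 58.1%. The FSTL3 window held 4 GC boxes, which 43.1% of all windows have at least once, and a TATA match, which 10.9% have. TEAD letters (12.5% of all windows) were found upstream of ACVR1, ACVR2B and GDF15 but in none of the 4 windows printed, and ATF4 letters (3.29%) in no member window. These matches describe letters and not binding, and the letters were chosen with the sequences in view.

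RNA was read with 1 amplicon per gene and expressed as reads scaled to a common library total (RPM), so that in bulk RNA fewer cells of a type and less RNA per cell cannot be told apart. Gene reads numbered 9345680 to 10551516 for HuCCT1/CD90− and 8587634 to 9327650 for HuCCT1/CD90+, and 3 reads, taken as the detection floor, correspond to 0.284 to 0.349 RPM. This floor covers counting error only, since PCR copies were not marked. THY1 had at most 1 read in each HuCCT1/CD90− library and 435 to 680 reads after THY1 transduction, a level at least 179-fold higher. For the cell type, the sum of 6 biliary markers was between 8199 and 9306 RPM without CD90 and between 10939 and 11677 RPM with it, and 4 of the 6 were higher (KRT19, KRT8, KRT18 and EPCAM). With replicate number as a block, KRT18 and EPCAM were still called. Of 5 fibroblast markers 4 were lower in HuCCT1/CD90+ (COL1A2, DCN, LUM and PDGFRB), LUM and PDGFRB also with the block, and the sum of the 5 went from 40.9 to 63.6 RPM down to 20.3 to 24.7 RPM. The 4 endothelial markers summed to 14.5 to 23.2 RPM against 0.643 to 1.63 RPM, with CDH5 the 1 that passed, and the 4 leukocyte markers to 46.5 to 55.9 RPM against 85.0 to 101 RPM, nearly all from CD68, with CD79A also higher and PTPRC and CD3E at the floor. The 4 hepatocyte markers summed to 4.28 RPM at most, with ALB, APOB and TTR at the floor and APOA1 lower in HuCCT1/CD90+. The part of these markers in the results below was not tested.

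At an adjusted p of at most 0.05, 4 of the 9 members differed between the lines, against 18.9% of all 20811 genes. INHBA, INHBB and FST were higher in HuCCT1/CD90+ (9.41% of all genes were) and FSTL3 was lower (9.52%). At the thresholds of the study, an unadjusted p of at most 0.05 with a fold change of at least 1.5, ACVR1B joined them and 5 of 9 passed, against 20.1% of all genes. By direction these were 4 higher, against 10.1%, and 1 lower, against 9.98%. The values of the lines did not overlap for 7 members, with ACVR1 and GDF15 as the exceptions, against 35.0% of all genes and 52.6% of the 12062 genes that averaged 1 RPM or more, to which all 9 members belong. The median log2 fold change was 0.67 over the members and 0 over all genes. When only those 12062 genes were fitted, ACVR1B, ACVR2A and ACVR2B passed as well, and 7 of 9 members were called against 41.7% of the genes tested. The sign of each of these 7 was the same in every setting. With the replicate number as a block 1 member was higher and 2 were lower (13.1% of all genes were called), and with the median change of 50 neighboring genes taken out 1 was higher and 1 lower (16.1%).

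**Figure D1:**
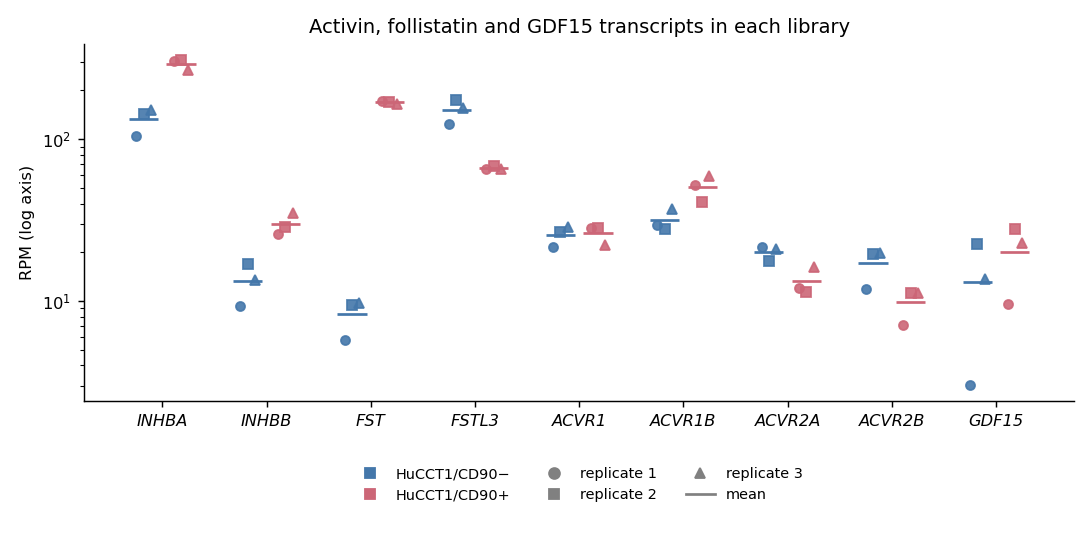
RPM (log axis) of the 9 members in each library, with HuCCT1/CD90− in blue, HuCCT1/CD90+ in red, a symbol for each replicate number and a line at the mean of the 3 libraries. The FST values sit at 5.78 to 9.70 RPM in HuCCT1/CD90− and at 166 to 173 RPM in HuCCT1/CD90+, while the values of ACVR1 and GDF15 overlap between the lines.

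FST, which encodes follistatin, had the largest fold change of the 9 members. HuCCT1/CD90− gave 5.78, 9.42 and 9.70 RPM, and HuCCT1/CD90+ gave 173, 169.5 and 166 RPM. The means were 8.30 ± 2.19 and 169.6 ± 3.56 RPM (SD, n = 3 each), a 20.4-fold rise, and every HuCCT1/CD90+ library lay far above every HuCCT1/CD90− library. The log2 fold change on the log2(RPM + 1) scale, which understates the change of weakly expressed genes, was 4.23 (standard error 0.20, 95% confidence interval 3.69 to 4.77, adjusted p = 0.0010, limma). By the size of its rise FST ranked 37 of the 20811 genes. FST lies on chromosome 5 of GRCh38 (GENCODE 29) from 53480409 to 53487134 on the plus strand, and its splice forms were not analysed here. The rise held in every alternative, with adjusted p-values from 5.7e-121 with DESeq2 to 0.022 with the replicate number as a block.

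FSTL3, the related binding protein, moved the other way. Its values without CD90 were 124, 174 and 155 RPM, and with CD90 they were 65.5, 68.5 and 65.9 RPM. The mean fell from 151 ± 25.5 to 66.6 ± 1.62 RPM, 2.27-fold, with no overlap and a much narrower spread in HuCCT1/CD90+. This gave a log2 fold change of -1.16 (standard error 0.14, interval -1.52 to -0.79, adjusted p = 0.0093, limma), and it passed in every alternative (adjusted p = 0.043 with the block). FSTL3 lies on chromosome 19 from 676365 to 683399 on the plus strand.

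INHBA encodes the beta A chain of activin A. Its values were 104, 143 and 152 RPM in HuCCT1/CD90− and 303, 307 and 268 RPM in HuCCT1/CD90+. The mean rose from 133 ± 25.4 to 293 ± 21.8 RPM, 2.20-fold, and the lowest HuCCT1/CD90+ library stood well above the highest HuCCT1/CD90− library. The log2 fold change was 1.15 (standard error 0.17, interval 0.69 to 1.60, adjusted p = 0.016, limma), and with the replicate block its adjusted p was 0.080. INHBA lies on chromosome 7 from 41667168 to 41705834 on the minus strand. The 50 nearest genes with at least 10 RPM had a median log2 fold change of 0.51 in HuCCT1/CD90+, and the 376 such genes of chromosome 7 a median of 0.55. With the neighbors' median taken out, an alternative chosen after seeing the data, the log2 fold change of INHBA was 0.64 (adjusted p = 0.078). It kept its call without any 1 of the HuCCT1/CD90− libraries and lost it without any 1 of the HuCCT1/CD90+ libraries (adjusted p = 0.065, 0.065 and 0.055 without replicates 1, 2 and 3).

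INHBB encodes the beta B chain of activin B and was lower in reads, with 99 to 324 reads a library. It measured 9.38, 17.0 and 13.6 RPM in HuCCT1/CD90− and 26.1, 28.5 and 35.2 RPM in HuCCT1/CD90+, without overlap. The mean rose from 13.3 ± 3.82 to 29.9 ± 4.71 RPM, 2.24-fold, close to the fold of INHBA. The log2 fold change was 1.13 (standard error 0.25, interval 0.47 to 1.80) and its adjusted p of 0.045 (limma) was just under the limit. The call was lost with the block (0.082), with the neighbors' median taken out (0.0504), and when any 1 of the 6 libraries was left out (0.052 to 0.13, limma). INHBB lies on chromosome 2 from 120346143 to 120351808 on the plus strand, where neighboring genes had a median of 0.0051.

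**Figure D2:**
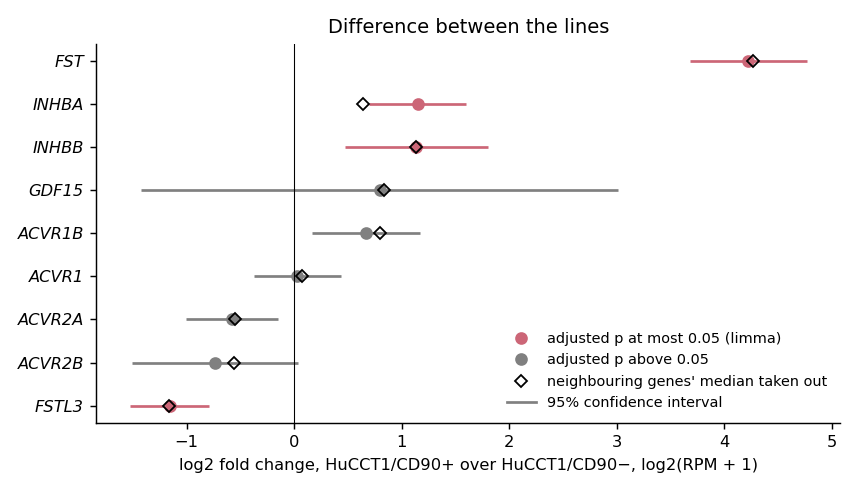
Log2 fold change (HuCCT1/CD90+ over HuCCT1/CD90−, on log2(RPM + 1)) of the 9 members with 95% confidence intervals from limma, colored where the adjusted p is at most 0.05, and an open diamond for the value after the median of 50 neighboring genes is taken out. FST stands at 4.23, INHBA and INHBB at 1.15 and 1.13 and FSTL3 at -1.16, and the diamond of INHBA, at 0.64, is the one farthest from its point.

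Since ligand and binding protein changed together, their transcripts were set against each other within each library. Amplicons differ in efficiency, so the size of a ratio says nothing of molar amounts, and only its change between the lines was read. The log2 ratio of INHBA to FST was 3.95, 3.79 and 3.84 in HuCCT1/CD90− and 0.81, 0.85 and 0.69 in HuCCT1/CD90+, so that it was lower by 3.08 (mean difference -3.08) although INHBA itself was higher. Against FSTL3 the ratio moved the other way, from -0.25, -0.28 and -0.029 to 2.19, 2.15 and 2.01, a difference of 2.30. The ratio of INHBB to FST went from 0.61, 0.79 and 0.45 to -2.69, -2.53 and -2.21. In each case the 3 libraries of a line lay close together compared with the distance between the lines. These ratios are built from members with known changes and were not tested.

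**Figure D3:**
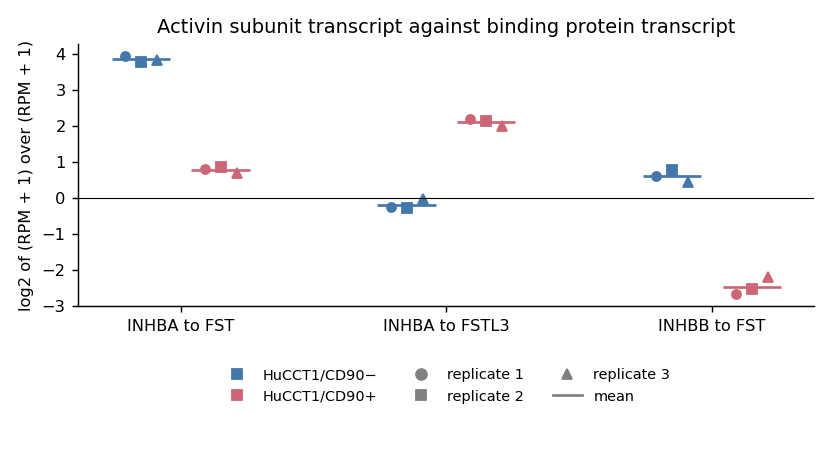
Log2 ratio of (RPM + 1) values within each library for INHBA to FST, INHBA to FSTL3 and INHBB to FST, with HuCCT1/CD90− in blue, HuCCT1/CD90+ in red, a symbol for each replicate number and a line at each mean. INHBA to FST drops from a mean of 3.86 to 0.78, and INHBA to FSTL3 climbs from -0.19 to 2.12.

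The 4 receptor transcripts had log2 fold changes from -0.73 to 0.67, smaller in size than those of the 4 members called, a difference that was not tested. None of the 4 passed at an adjusted p of 0.05 in the fit over all genes, where ACVR1B and ACVR2A passed the unadjusted limit alone, and all 4 stayed well above the floor, with 66 to 547 reads a library. ACVR1B, the type I receptor of activins also known as ALK4, measured 29.3, 28.0 and 37.1 RPM in HuCCT1/CD90− and 52.4, 40.6 and 59.4 RPM in HuCCT1/CD90+. The lines did not overlap, and the means were 31.5 ± 4.89 and 50.8 ± 9.46 RPM. Its log2 fold change was 0.67 (standard error 0.19, interval 0.16 to 1.17, adjusted p = 0.084, limma), and its adjusted p was 0.013 over genes of at least 1 RPM, 0.0036 with edgeR and 0.0011 with DESeq2.

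Both type II receptors were on the opposite side. ACVR2A had 21.4, 17.8 and 20.9 RPM in HuCCT1/CD90− and 12.01, 11.4 and 16.3 RPM in HuCCT1/CD90+, with means of 20.01 ± 1.97 and 13.2 ± 2.65 RPM and no overlap. Its log2 fold change was -0.57 (interval -1.002 to -0.15, adjusted p = 0.082, limma), short of the study's fold limit on this scale. The ratio of its means, 1.51, and its log2 fold change of -0.61 with an offset of 0.1 RPM were past that limit, so that its place among the members at the study's thresholds depends on the offset. ACVR2B had 11.8, 19.6 and 19.9 RPM against 7.08, 11.2 and 11.2 RPM, with a log2 fold change of -0.73 (interval -1.50 to 0.033, adjusted p = 0.18, limma). The lowest HuCCT1/CD90− library of ACVR2B, replicate 1, lay just above the highest HuCCT1/CD90+ libraries, and replicate 1 was the lowest library of both lines. With the replicate block ACVR2B passed (adjusted p = 0.019) and ACVR2A did not (0.10). On recovered reads both passed with edgeR (0.020 for ACVR2A and 0.011 for ACVR2B) and DESeq2 (0.024 and 0.011), tests in which 44.4% and 37.0% of all genes tested were called. Without HuCCT1/CD90+ replicate 3, ACVR2A passed in limma as well (0.039).

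ACVR1, the type I receptor ALK2 that mainly serves BMPs and can also bind activins, was 21.6, 26.6 and 28.5 RPM in HuCCT1/CD90− and 28.1, 28.3 and 22.1 RPM in HuCCT1/CD90+. The ranges overlapped almost entirely. The log2 fold change was 0.032 with an interval of -0.38 to 0.44, so that changes beyond this range in either direction lay outside the interval, and its sign turned with quantile normalization and with some libraries left out. ACVR1 and ACVR2A lie on the long arm of chromosome 2, with starts and ends of 157736444 to 157875862 and 147844517 to 147930826. ACVR1B lies on chromosome 12 from 51951667 to 51997078 and ACVR2B on chromosome 3 from 38453851 to 38493142.

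GDF15, a secreted stress cytokine, varied more within the lines than between them. It measured 3.03, 22.4 and 13.8 RPM in HuCCT1/CD90− and 9.65, 27.7 and 22.8 RPM in HuCCT1/CD90+. The means of 13.1 ± 9.68 and 20.05 ± 9.34 RPM overlapped widely, and the log2 fold change was 0.80 (standard error 0.83, interval -1.42 to 3.01, adjusted p = 0.62, limma). The interval reaches from a lower to a several-fold higher level, and with any 1 library left out the log2 fold change ran from 0.060 to 1.33. Replicate 1 was the lowest and replicate 2 the highest library in both lines, and within each number HuCCT1/CD90+ was the higher. Taking this into account with the block still gave an adjusted p of 0.24. GDF15 lies on chromosome 19 from 18374731 to 18389176 on the plus strand. Its receptor gene GFRAL had no read in any library, which allows up to 3 reads in each.

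Genes that regulate GDF15 or are induced with it under stress were examined beside it. Of 10 such genes 1 rose and 2 fell. CDKN1A, the cell cycle inhibitor p21, rose from 19.7 to 58.0 RPM, and EGR1, an immediate early transcription factor, fell from 22.4 to 9.31 RPM (adjusted p = 0.010 and 0.011, limma). The list had a median log2 fold change of 0.53, against 0 over all genes. The ATF4 target genes did not pass in limma over all genes, but TRIB3 and ATF3 passed over genes of at least 1 RPM (0.0020 and 0.00086), with edgeR (6.9e-05 and 6.3e-05) and with DESeq2 (0.0042 and 1.7e-07). TRIB3 was 99.6, 304 and 199 RPM in HuCCT1/CD90− and 518, 950.2 and 511 RPM in HuCCT1/CD90+ (adjusted p = 0.092, or 0.072 with the block and 0.12 with the neighbors' median taken out). ATF3 was 1.14, 4.28 and 3.98 against 8.68, 15.8 and 15.3 RPM (0.064, or 0.034 with the block and 0.051 with the neighbors' median taken out). CHAC1 was 4.26, 94.4 and 54.4 RPM against 33.3, 116 and 44.3 RPM (0.79). As for GDF15, replicate 1 was the lowest and replicate 2 the highest library of HuCCT1/CD90− for ATF4, ATF3, TRIB3, SESN2 and CHAC1.

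**Figure D4:**
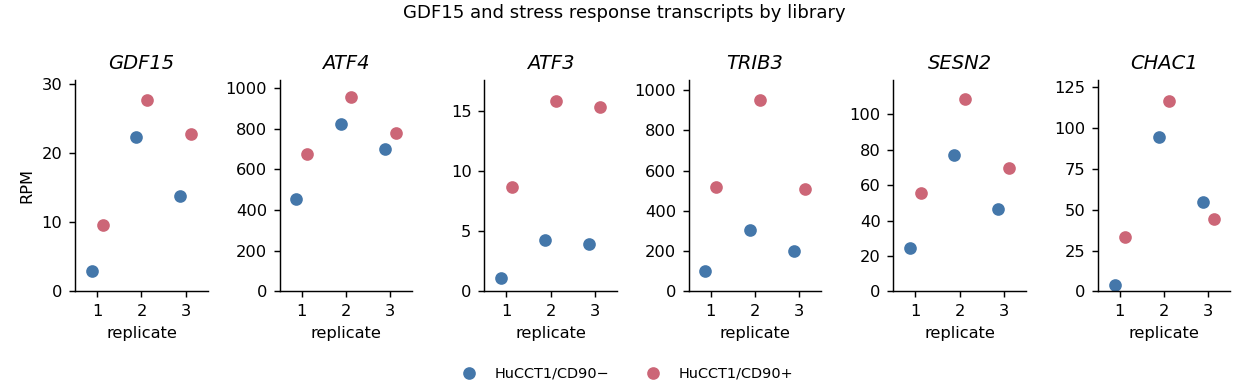
RPM of GDF15, ATF4, ATF3, TRIB3, SESN2 and CHAC1 by replicate number, with HuCCT1/CD90− in blue and HuCCT1/CD90+ in red, each panel on its own axis from 0. In HuCCT1/CD90− replicate 1 is the lowest point of every panel, with 3.03 RPM for GDF15 and 4.26 RPM for CHAC1, and the lines do not overlap for ATF3 and TRIB3.

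The genes closest in pattern to INHBA, FST and GDF15 were found by the root mean square distance of centered log2(RPM + 1) values over the 6 libraries, among 8793 other genes averaging 10 RPM or more. For INHBA they were FIG4 (distance 0.075), TMEM154 (0.084) and SLAMF7 (0.097). FIG4 measured 9.19, 14.2 and 12.9 RPM in HuCCT1/CD90− and 30.6, 30.7 and 24.8 RPM in HuCCT1/CD90+. For FST they were NUP210 (0.10), C1orf210 (0.17) and IL1RN (0.17), of which IL1RN, the interleukin-1 receptor antagonist, went from 3.70, 7.28 and 5.14 to 108, 101 and 123 RPM. For GDF15 the nearest genes were farther away, at 0.38 for TNFAIP3, 0.40 for SESN2 and 0.46 for PCK2. These distances are a description over 2 groups of 3 libraries.

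The other genes of the pathway, 60 in 7 lists, were called at a rate near that of all genes. In all, 5 were higher and 7 lower in HuCCT1/CD90+, which is 20% of the 60 against 18.9% of all genes, with a median log2 fold change of 0.045. The number lower was 4 without HuCCT1/CD90− replicate 3, 4 without HuCCT1/CD90+ replicate 1, 4 without its replicate 2 and 2 without its replicate 3. The share of all genes called in those fits is not given here. Of the 10 other activin class ligands none passed with limma (median log2 fold change 0), edgeR or DESeq2, and 1 had an unadjusted p of at most 0.05. This was LEFTY1, with 14, 5 and 7 reads in HuCCT1/CD90− and 1, 2 and 2 in HuCCT1/CD90+. Of the 10, edgeR tested GDF11 alone, since the others had too few reads. GDF11 differed by less than its spread (30.7 ± 8.20 and 28.1 ± 2.94 RPM), and INHBC, MSTN, NODAL, GDF3 and LEFTY2 had at most 3 reads in every library. INHA, which encodes the alpha chain that turns activin into inhibin, had 0 to 5 reads.

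Among 9 other binding proteins and co-receptors, 2 fell and 1 rose (median log2 fold change 0.040). BAMBI, a decoy receptor without kinase activity, fell 6.17-fold, FSTL1, a follistatin-domain protein not known as a strong activin binder, fell from 325 ± 27.5 to 175 ± 20.7 RPM, and TGFBR3, betaglycan, the co-receptor of TGF-β and inhibin, rose from 34.4 ± 2.89 to 54.0 ± 2.69 RPM (adjusted p = 0.0075, 0.010 and 0.0089, limma). FSTL4, FSTL5, WFIKKN2, TDGF1 and CFC1 had at most 3 reads in every library. Of 10 other receptors (median 0.073) only BMPR1B passed in this fit, with 2, 1 and 4 reads in HuCCT1/CD90− and 26, 16 and 31 reads in HuCCT1/CD90+ (adjusted p = 0.010), and ACVRL1, AMHR2, GFRAL and RET were at the floor in both lines. BMPR1A, at means of 19.1 and 12.8 RPM, passed over genes of at least 1 RPM (0.024), with edgeR (0.023) and with DESeq2 (0.030). It did not pass with the block (0.077) or with the neighbors' median taken out (0.087). BMPR2, at 68.0 and 55.6 RPM, passed with the block (0.041). It did not pass over genes of at least 1 RPM (0.16), with edgeR (0.13) or with DESeq2 (0.16). Of 12 intracellular components (median -0.046), 2 fell in limma over all genes. SMAD2 measured 62.2 ± 5.61 and 45.4 ± 4.88 RPM without overlap (adjusted p = 0.062). It passed over genes of at least 1 RPM (0.040), with edgeR (0.023), with DESeq2 (0.018) and with the neighbors' median taken out (0.035), but not with the block (0.13). SMAD4, the common partner of SMAD2 and SMAD3, went from 51.1 ± 3.35 to 39.0 ± 0.275 RPM (adjusted p of 0.013, and of 0.060 under the block). SKI, a repressor of SMADs, went from 68.6 ± 6.33 to 46.1 ± 3.44 RPM (0.021), with -0.56 as its log2 fold change. With the neighbors' median taken out that of SKI was -0.18 (adjusted p = 0.30), that of SMAD4 was -0.57 in place of -0.38, and that of FSTL1 was -1.49 in place of -0.90, the last 2 still called. SMAD4 had an adjusted p of 0.053 over genes of at least 1 RPM.

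The proprotein convertases cleave the precursors of TGF-β family ligands. Of 4 (median -0.032), PCSK6 rose, with 0, 0 and 1 read in HuCCT1/CD90− and 188, 264 and 227 reads in HuCCT1/CD90+, at least a 78.4-fold increase (log2 fold change 4.65, adjusted p = 0.00052, limma), while FURIN, PCSK5 and PCSK7 did not pass. Of 7 genes that SMAD2 and SMAD3 commonly induce (median 0.054), 1 rose and 1 fell. CCN2 (listed as CTGF), a matricellular protein gene, fell 2.27-fold from 47.7 ± 5.48 to 21.0 ± 5.61 RPM (limma adjusted p of 0.027, and of 0.090 under the block). Its log2 fold change was -1.17, and -0.70 with the neighbors' median taken out (adjusted p = 0.11). CDKN2B ranged from 62.5 to 109 RPM without CD90 and from 187 to 228 RPM with it (adjusted p = 0.052, or 0.0015 over genes of at least 1 RPM, 4.7e-05 with edgeR and 6.1e-08 with DESeq2). It did not pass in limma with the block (0.095) or with the neighbors' median taken out (0.058). PMEPA1, JUNB, SMAD7 and SKIL did not pass in limma. JUNB had an adjusted p of 0.0495 with edgeR and of 0.052 with DESeq2.

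**Figure D5:**
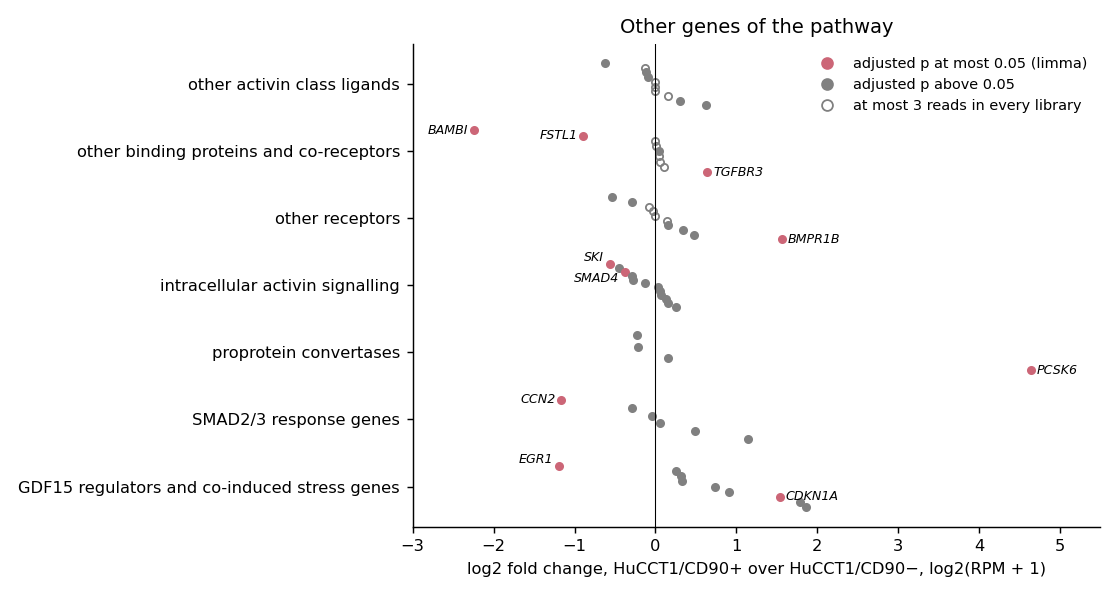
Log2 fold change (HuCCT1/CD90+ over HuCCT1/CD90−, on log2(RPM + 1)) of the other pathway genes reported here, by list, in red with the symbol where the limma adjusted p is at most 0.05 and as open circles where no library had more than 3 reads. PCSK6 lies farthest to the right, at 4.65, and BAMBI farthest to the left, at -2.24.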

How the data were processed

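RNA of the 6 HuCCT1 libraries was read with an Ion AmpliSeq gene expression panel. The authors used the ampliSeqRNA plugin to count reads, scaled them by each library's total and deposited the resulting RPM for 20811 genes, 3805 of them at 0 throughout. The submitters' processing notes name hg19 and Transcriptome Analysis Console. Amplicon positions were not used here, and gene positions were taken from GENCODE 29 (GRCh38). Deposited RPM values were whole multiples of 1 read in 100% of cases (within 0.05 reads beyond rounding), and these reads were used for edgeR 4.0.16 and DESeq2 1.42.0.

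Values were taken to log2(RPM + 1) and all genes were fitted with limma 3.58.1 in R 4.3.3 (lmFit, eBayes, two-sided, Benjamini-Hochberg adjustment over 20811 genes), following the study's choice of limma. Adjusted p-values are from this fit unless another is named, and an adjusted p of at most 0.05 was called. The members and lists were chosen with earlier results of these data known. Named were all members, THY1, list genes that were called or at the floor, and the 3 genes nearest in pattern to INHBA, FST and GDF15, along with a few list genes chosen after their values were seen. Some list genes are counted but not reported here. The scripts were tested on simulated data. Libraries of a line differed by more than sampling noise.

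Deviations from the line means correlated in same-numbered libraries (r = 0.18 to 0.32 over genes, against -0.29 to 0.071 in other pairs), which met the limit set for pairing (every r over 0.1). Deviations from a line mean cancel within the line, so positive same-numbered values force the other pairs down on average. The low values of the other pairs are therefore no separate support. Only this check backs the pairing. The main fit is unpaired, and the replicate block was run as an alternative. The other alternatives were offsets of 0.1 and 5 RPM, minimum means of 1 and 10 RPM, quantile normalization, median centring, eBayes with trend and robust settings, each library left out, edgeR (quasi-likelihood, TMM, filterByExpr), DESeq2 and, added after seeing the data, the median change of 50 neighboring genes taken out.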

Additional observations from a re-analysis of the deposited data

How the results depend on the processing

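THY1, FST and FSTL3 kept their sign and their call in every alternative. With the replicate block the adjusted p was 0.080 for INHBA, 0.082 for INHBB and 0.019 for ACVR2B, so that 1 member was called higher and 2 lower, and the block changed no other member's call. With the neighbors' median taken out it was 0.078 for INHBA and 0.0504 for INHBB, leaving 1 member higher, and with trend and robust settings it was 0.052 for INHBB. ACVR1B, ACVR2A and ACVR2B passed over genes of at least 1 RPM (0.013, 0.020 and 0.023), over genes of at least 10 RPM (0.0084, 0.014 and 0.016), with edgeR (0.0036, 0.020 and 0.011) and with DESeq2 (0.0011, 0.024 and 0.011), which gives 3 members lower in each. Fewer genes are tested there, and genes without reads no longer enter the estimate of the spread. With median centring ACVR1B (0.035) and ACVR2A (0.037) passed, giving 2 members lower. Of all genes tested, 41.7% were called at the 1 RPM minimum, 44.4% with edgeR and 37.0% with DESeq2. That share is not given here for the 10 RPM minimum or for median centring, so the member counts there have no share beside them. ACVR1 turned sign under quantile normalization (adjusted p = 1.0). The cause of these shifts was not tested further.

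With 1 library left out, adjusted p-values ran from 0.012 to 0.065 for INHBA, 0.052 to 0.13 for INHBB, 0.68 to 1.0 for ACVR1, 0.067 to 0.21 for ACVR1B, 0.039 to 0.21 for ACVR2A and 0.097 to 0.39 for ACVR2B, with 1 to 2 members higher and 1 to 2 lower. Of the other pathway genes 4 to 6 were then higher and 2 to 8 lower. The share of all genes called with 1 library left out is not given here. The number of other pathway genes higher was 8 over genes of at least 1 RPM, 8 with median centring, 9 with edgeR and 8 with DESeq2. The INHBA to FST difference was -3.22 with an offset of 0.1 RPM and -2.60 with 5 RPM, and that of INHBB to FST was -2.79 with 5 RPM. Scaling moved the median of 12062 genes by less than 0.1. Having 3 libraries a line limits all members.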

Other observations

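INHBE, the gene of the activin beta E chain, had 0, 2 and 0 reads in HuCCT1/CD90− and 0, 12 and 8 reads in HuCCT1/CD90+, and the difference did not pass (adjusted p = 0.36, limma).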
